A study of Mus musculus with 24 samples.

Results

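Fatty acid oxidation and ketogenesis were followed here through 32 genes of the mouse retinal pigment epithelium (RPE), the pigmented layer behind the photoreceptors that engulfs their shed outer segments. The genes form a fixed list of the pathway, which was drawn up with earlier results of these data known. They were found by gene symbol among 54232 identifiers, and all 32 were present and passed the filter on low counts. The list holds 3 regulators, 5 genes of fatty acid binding and activation, 4 of the carnitine shuttle, 12 of mitochondrial beta-oxidation, 3 of electron transfer, 2 of ketone body metabolism and 3 of peroxisomal oxidation. The study asked how the clock genes Per1 and Per2 bear on the daily rhythm of outer segment uptake, and RNA was sequenced from RPE cut out by laser capture from snap-frozen eyes. Mice were males 6 weeks old of strain C57BL/6/J x 129 SvEvBrd. The knockout group carried the alleles labelled Per1-/-Per2Brdm1, which are present in every cell of the animal and not in the RPE alone, and the wild-type group carried neither. Eyes of both genotypes were taken at circadian times CT19, CT22, CT1 and CT10, which gave 8 groups of 3 libraries, 24 in all. Of these, 5 libraries (4 knockout, 1 wild type) were pooled from 2 eyes and carry a joined number such as 3and5. Nothing in the labels ties each library to its own animal, and the p-values speak only for variation among these libraries.

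Mitochondrial beta-oxidation shortens fatty acids into acetyl-CoA after the carnitine shuttle has carried them across the inner membrane. RPE cells take in large amounts of fatty acid with each load of outer segment membrane, and they are known to oxidise it and to release part of the product as the ketone body beta-hydroxybutyrate toward the photoreceptors. The nuclear receptor PPAR alpha and its coactivator PGC-1 alpha drive many genes of the pathway in liver and muscle.

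Libraries held 16245067 to 32066263 counts, of which 31323 to 62851 fell on the 32 genes. All values below are read counts scaled to library size (CPM) computed with edgeR's TMM factors. Per1 and Per2 transcripts were higher in knockout at CT19, CT22 and CT1. The log2 fold changes of Per2 were 2.06, 2.54 and 3.05 (edgeR adjusted p = 0.0062, 0.00021 and 7.8e-05). Those of Per1 were 1.63, 1.7 and 2.03 (edgeR adjusted p = 0.059, 0.02 and 0.0047), so Per1 at CT19 did not pass. At CT1, Per2 averaged 129 ± 22 CPM in knockout and 15.5 ± 5.90 CPM in wild type, and Per1 averaged 165 ± 76.3 CPM in knockout and 40.3 ± 5.13 CPM in wild type (SD, n = 3 each). At CT10, Per2 averaged 96.7 ± 5.47 CPM in knockout and 137 ± 38.6 CPM in wild type, and the log2 fold change of Per1 was -0.45. Neither CT10 difference passed (edgeR adjusted p = 0.4 and 0.48). Counts over the whole gene need not fall when an allele lacks part of it, so they do not check the genotype labels. The 15 RPE markers summed to 36170 to 69610 CPM. The 18 rod markers summed to 18910 to 98660 CPM and none was at 0 in any library, so rod RNA was present in every sample. Muscle markers were highest in wild-type CT1 replicate 2, with a mean log2(CPM + 1) of 5.76, and adipocyte markers were highest in knockout CT1 replicate 1, at 1.79. The lowest values over the 24 libraries were 0.28 for muscle and 0.01 for adipocyte markers.

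Per length of exon, the 32 genes spanned levels from Acaa2, the thiolase of the last step of mitochondrial beta-oxidation, at 65.9 ± 17.5 CPM per kilobase, to Ppara at 1.86 ± 0.77 CPM per kilobase (SD, n = 24). Eci1, an isomerase for unsaturated fatty acids, followed at 62.8 ± 15.5 CPM per kilobase. Acadl and Acadvl, the long-chain and very-long-chain acyl-CoA dehydrogenases, stood at 53.2 ± 11.7 and 42.0 ± 6.47 CPM per kilobase. These neighbours in the order differed by less than their spread. Cpt1a, the outer-membrane carnitine palmitoyltransferase that admits long-chain fatty acids to the mitochondrion, was the sixth by length, at 39.9 ± 7.21 CPM per kilobase. The 3 regulators stood in the lower part of the order, among enzymes of several roles. Hadha and Hadhb, the alpha and beta subunits of one enzyme, the mitochondrial trifunctional protein, differed in level, with 17.6 ± 2.22 CPM per kilobase for Hadha and 4.55 ± 1.07 CPM per kilobase for Hadhb. Lengths are those of all annotated exons merged, which lowers the value of a gene with many rarely used exons.

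Most members varied little between libraries of one group. The SD within groups, pooled over the 8 groups on the log2(CPM + 1) scale, had a median of 0.246 over the 32 genes and lay under 0.3 for 23 of them. It passed 1 for 1 gene, Fabp5, at 1.73, and Angptl4 was next at 0.904. For Fabp5 single libraries set some group means, and Angptl4 spread widely in some groups and little in others.

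At each time the mean over the list differed between genotypes by less than the SD between libraries pooled over the 8 groups. No test of this mean was run, so a difference smaller than that SD is not excluded. The mean log2(CPM + 1) over the 32 genes was 5.39 ± 0.27 in knockout and 5.51 ± 0.18 in wild type at CT19, and 5.54 ± 0.20 in knockout and 5.51 ± 0.07 in wild type at CT22. It was 5.33 ± 0.10 in knockout and 5.51 ± 0.17 in wild type at CT1, and 5.48 ± 0.16 in knockout and 5.46 ± 0.20 in wild type at CT10 (SD, n = 3 each). The differences of knockout minus wild type were -0.12, 0.03, -0.177 and 0.03 at CT19, CT22, CT1 and CT10. None was larger than the pooled SD of 0.179. The CT1 difference was larger than the SD of either group at CT1, 0.101 in knockout and 0.169 in wild type. The ranges of the genotypes overlapped at each of the 4 times.

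**Figure D1:**
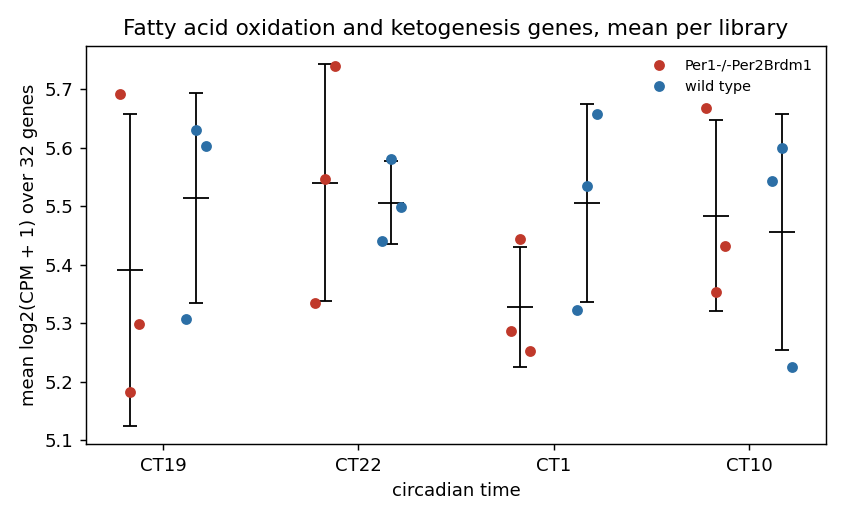
Mean log2(CPM + 1) over the 32 genes in each library, at 4 circadian times, with knockout (red) left of wild type (blue). Points are libraries, horizontal marks group means and bars the SD over 3 libraries; the axis does not start at 0. Knockout and wild-type points overlap at every time.

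No member passed the test between genotypes at any time. With edgeR's quasi-likelihood fit and p-values adjusted by Benjamini-Hochberg over 20275 genes, the threshold of 0.05 was passed by 0 of the 32 for the average over the 4 times, against 0.375% of all genes tested. The test called 0 of 32 at CT19 (0.0691% of all genes), 0 at CT22 (0.227%), 0 at CT1 (0.533%) and 0 at CT10 (0.0345%). With so few calls over all genes, these counts are near the background. At an unadjusted p under 0.05 stood 3 members for the average, 2 at CT19, 1 at CT22, 7 at CT1 and 8 at CT10. As shares of the 32 these were 9.38%, 6.25%, 3.12%, 21.9% and 25.0%, against 7.07%, 3.47%, 12.7%, 19.5% and 17.9% of all genes. DESeq2 called 0 for the average, 1 at CT19 (Hadhb), 0 at CT22, 1 at CT1 (Bdh1) and 2 at CT10 (Bdh1 and Acaa1a). Over all genes DESeq2 called 169 for the average, 39 at CT19, 275 at CT22, 1081 at CT1 and 750 at CT10. limma-voom called 0 of 32 in each of the 5.

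The median log2 fold change of the 32 genes, knockout minus wild type, was -0.17 at CT19 where that of all genes tested was -0.01. The medians were -0.05 for the members and 0.03 for all genes at CT22, and -0.16 for the members and -0.01 for all genes at CT1. At CT10 the members' median was 0.14 and that of all genes 0.09. The RPE markers had a mean log2(CPM + 1) of 9.53 in knockout and 9.82 in wild type at CT19. Their means were 9.51 in knockout and 9.67 in wild type at CT22, and 9.53 in knockout and 9.35 in wild type at CT1. At CT10 they were 9.69 in knockout and 9.47 in wild type. The part of RPE content in the members' medians was not tested. Of the 32 fold changes, 27 were negative at CT19, 19 at CT22, 22 at CT1 and 11 at CT10. These are counts of signs over genes measured in the same libraries and carry no test.

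**Figure D2:**
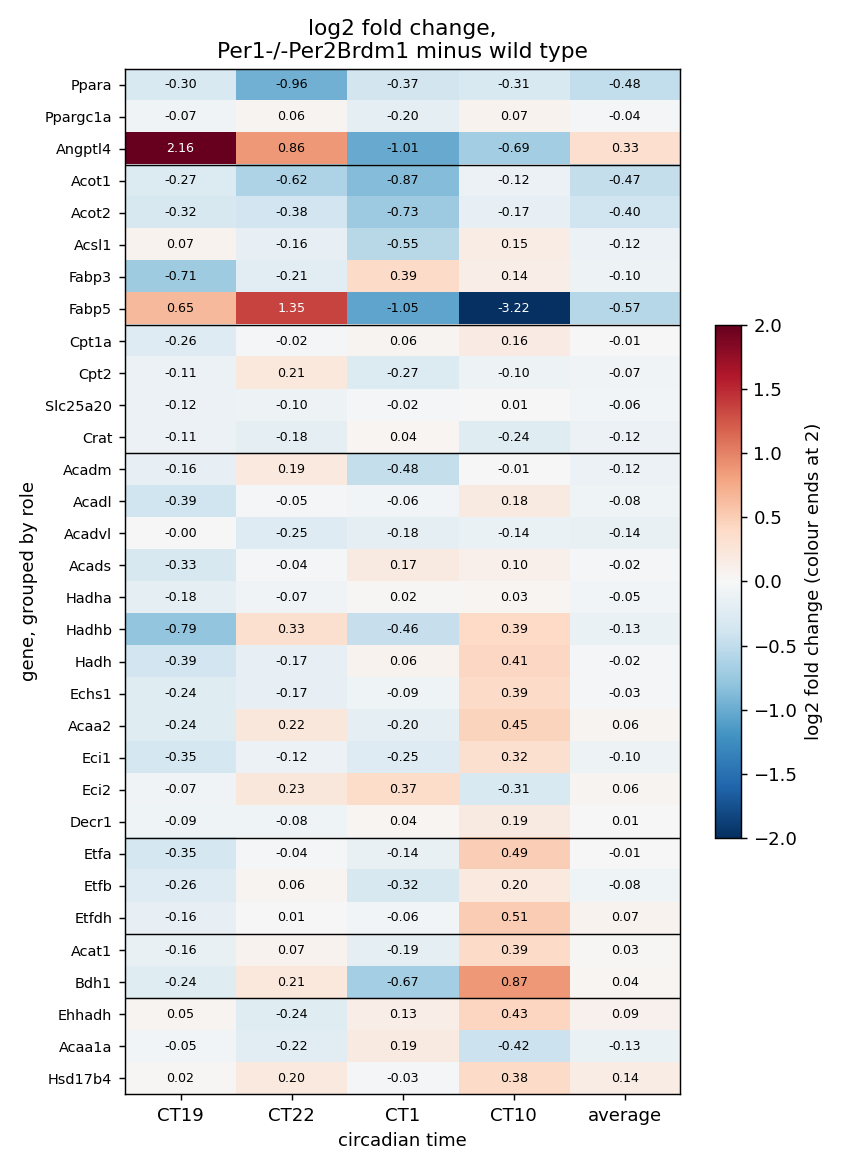
Fitted log2 fold change of knockout minus wild type for the 32 genes, in rows grouped by role, at CT19, CT22, CT1 and CT10 and averaged over the 4 times. Red is higher and blue lower in knockout, colours end at 2, and none of the values passed the test. Bdh1 reads -0.67 at CT1 and 0.87 at CT10, and the widest values belong to Angptl4 and Fabp5.

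Over time of day 1 member passed the test in wild-type RPE. Across the 4 times, 1 of 32 genes (Bdh1) was called in wild type, against 0.947% of all genes, and 0 of 32 in knockout, against 0% of all genes. At an unadjusted p under 0.05, 4 members and 2364 of all genes stood in knockout, where DESeq2 and limma-voom also called 0 members. From CT1 to CT10, 2 members were called in wild type (Bdh1 lower and Eci2 higher at CT10), against 3.48% of all genes. The same contrast called 0 members in knockout, against 0% of all genes, with 8 members and 2803 of all genes at an unadjusted p under 0.05, and 0 members by DESeq2 and by limma-voom. The time course itself differed between genotypes for 2 members, Bdh1 and Hadhb, against 4.62% of all genes. The same 2 genes differed in their change from CT1 to CT10, against 11.6% of all genes. For these 2 comparisons the members' share stood near or under the background.

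Bdh1 encodes the mitochondrial enzyme that interconverts acetoacetate and beta-hydroxybutyrate, the last step of ketone body production. It is gene ENSMUSG00000046598 on the forward strand at chr16:31422280-31458901 (GRCm38). The 233 bases before its annotated start, from the RefSeq promoter table (GRCm38.p6, chr16:31422047-31422279, forward strand), are shown because Bdh1 carried the list's lowest adjusted p. They hold no match on either strand to the E-box CACGTG or the D-box TTATGNAA, the motifs bound by clock factors. The GC box GGGCGG is absent from them too, and so they have no capitals.
Bdh1: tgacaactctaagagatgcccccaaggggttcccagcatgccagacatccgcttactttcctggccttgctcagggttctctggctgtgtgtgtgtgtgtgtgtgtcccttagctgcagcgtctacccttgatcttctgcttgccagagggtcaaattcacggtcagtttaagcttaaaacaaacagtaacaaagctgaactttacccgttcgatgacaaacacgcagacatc
Both strands were searched in windows of the RefSeq table, which held 27 windows for 25 of the 32 genes. CACGTG occurred in 0 of the 25 genes, against 7.15% of 32851 windows of all genes, and TTATGNAA in 0, against 3.38%. AGGTCA, the half-site of nuclear receptors such as PPAR alpha, occurred in 4 (Acadm, Acadvl, Cpt1a and Echs1), against 16.3% of all windows. GGGCGG, the GC box, occurred in 19, against 35.7% of all windows. Bdh1 is among the 19, though the 233 bases shown hold no GC box, so its match lies outside them. A match is a description of the letters and does not show that a factor binds.

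The change of Bdh1 between CT1 and CT10 differed between the 2 genotypes. At CT19 Bdh1 stood at 42.6, 39.3 and 33.5 CPM in knockout and 49.6, 43.2 and 43.9 CPM in wild type. At CT22 Bdh1 stood at 29.6, 45.7 and 35.4 CPM in knockout and 26.7, 39.5 and 29.3 CPM in wild type. The genotypes did not overlap at CT19, where knockout was lower, and overlapped at CT22. At CT1 Bdh1 stood at 23.4, 27.3 and 19.7 CPM in knockout and 41.9, 36.5 and 33.8 CPM in wild type. At CT10 Bdh1 stood at 33.8, 36.5 and 43.6 CPM in knockout and 18.1, 21.9 and 22.2 CPM in wild type. Every knockout library was below every wild-type library at CT1 and above every one at CT10. As group means Bdh1 was 38.5 ± 4.59 CPM in knockout and 45.5 ± 3.50 CPM in wild type at CT19, and 36.9 ± 8.11 CPM in knockout and 31.8 ± 6.73 CPM in wild type at CT22 (SD, n = 3 each). The group means were 23.4 ± 3.81 CPM in knockout and 37.4 ± 4.14 CPM in wild type at CT1, and 38.0 ± 5.07 CPM in knockout and 20.7 ± 2.26 CPM in wild type at CT10. In wild type Bdh1 was lower at CT10 than at CT1 by a log2 change of -0.85 (SE 0.19, edgeR adjusted p = 0.019). In knockout the same change was 0.70 (SE 0.19) and did not pass (edgeR adjusted p = 0.23). The difference of these changes, knockout minus wild type, was 1.55 (SE 0.27, edgeR adjusted p = 0.0045). Over all 4 times the genotype differences of Bdh1 spanned 1.55 on the log2 scale (edgeR adjusted p = 0.018 for genotype by time), and its wild-type levels spanned 1.14 (edgeR adjusted p = 0.022). The single-time differences did not pass, at -0.67 for CT1 (edgeR adjusted p = 0.073) and 0.87 for CT10 (edgeR adjusted p = 0.077). Its exons share 533 bases with Gm15743 on the opposite strand, which had 298 counts in all libraries together against 19528 for Bdh1.

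Markers of neighbouring retina differed along with these groups. For the 18 rod markers the mean log2(CPM + 1) was 9.76, 9.66 and 9.83 in knockout and 11.2, 10.8 and 10.7 in wild type at CT1. At CT10 it was 10.01, 10.2 and 10.6 in knockout and 9.61, 10.01 and 10.3 in wild type, where the genotypes overlapped. With the rod score as a covariate the CT10 minus CT1 difference of Bdh1 was 1.06 and did not pass (edgeR adjusted p = 0.096), and its wild-type change was -0.54 (edgeR adjusted p = 0.22). The 15 markers of inner retina and glia, 2 of them at 0 in some library, had a mean log2(CPM + 1) of 3.51, 3.76 and 3.67 in knockout and 4.21, 5.38 and 3.80 in wild type at CT1. Their values at CT10 were 4.39, 3.90 and 4.43 in knockout and 3.07, 3.06 and 3.59 in wild type. Like Bdh1, they did not overlap between genotypes at either time and had the same order. The 10 cone markers had 3.22, 3.99 and 4.18 in knockout and 5.32, 4.25 and 4.21 in wild type at CT1, without overlap, and overlapped at CT10. The part of inner retina, glia and cone markers in the results on Bdh1, Hadhb and Eci2 was not tested. The RPE markers were higher in every knockout library than in any wild-type library at CT10, with 9.86, 9.60 and 9.61 in knockout and 9.47, 9.54 and 9.40 in wild type. With the RPE score as a covariate, chosen after seeing the data, the difference of Bdh1 was 1.55 and passed (edgeR adjusted p = 0.00079). In such bulk samples fewer cells of a type and less RNA per cell cannot be told apart. The difference of 1.55 was called in all 24 fits that left out 1 library, with adjusted p of 0.0016 to 0.024. Without wild-type CT1 replicate 2 and knockout CT1 replicate 1, the libraries highest in muscle and in adipocyte markers, it was 1.40 (edgeR adjusted p = 0.03). The wild-type change from CT1 to CT10 rested on more single libraries. It lost its call without wild-type CT1 replicate 2 or 3and6, at log2 changes of -0.73 and -0.85, and without wild-type CT10 replicate 1 or 4, at -0.75 and -0.87, with edgeR adjusted p of 0.07 to 0.13. Those 4 libraries and wild-type CT10 replicate 2 each ended the wild-type time call as well, at ranges of 1.00 to 1.12. The genotype-by-time call ended without knockout CT1 replicate 5, wild-type CT1 replicate 2 or 3and6, knockout CT10 replicate 4 or wild-type CT10 replicate 1, at 1.36 to 1.52.

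Acat1, the thiolase that joins 2 acetyl-CoA on the way to ketone bodies and splits acetoacetyl-CoA on the way back, was the other ketone body gene. At CT19 Acat1 averaged 101.0 ± 14.8 CPM in knockout and 112.5 ± 7.54 CPM in wild type. At CT22 Acat1 averaged 110.0 ± 23.6 CPM in knockout and 104.6 ± 9.0 CPM in wild type (SD, n = 3 each). The libraries of the genotypes overlapped in Acat1 at both times. At CT1 Acat1 averaged 87.6 ± 8.13 CPM in knockout and 99.7 ± 22.2 CPM in wild type. At CT10 Acat1 averaged 118.6 ± 16.8 CPM in knockout and 90.5 ± 13.5 CPM in wild type (SD, n = 3 each). The signs at CT1 and CT10 matched those of Bdh1, with log2 fold changes of -0.19 and 0.39, but neither passed (edgeR adjusted p = 0.62 and 0.26), and its CT10 minus CT1 difference of 0.58 did not pass either (edgeR adjusted p = 0.14).

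Hadhb encodes the beta subunit of the trifunctional protein, which carries the thiolase activity for long-chain substrates. Hadha encodes the alpha subunit, with the hydratase and dehydrogenase activities. They lie head to head on chromosome 5 (GRCm38), Hadha on the reverse strand at chr5:30118304-30155162 and Hadhb on the forward strand at chr5:30155248-30184593. The 85 bases between their starts (chr5:30155163-30155247, forward strand, RefSeq promoter table, GRCm38.p6) are shown because the pair shares them while the measured levels differed. Capitals mark the 2 GC boxes GGGCGG.
Hadha-Hadhb: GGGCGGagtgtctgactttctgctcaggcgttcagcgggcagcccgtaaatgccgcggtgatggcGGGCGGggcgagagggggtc

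Hadhb differed between genotypes in its time course. At CT19 Hadhb stood at 23.2, 22.9 and 26.1 CPM in knockout and 34.4, 45.2 and 45.0 CPM in wild type. At CT22 Hadhb stood at 29.0, 29.5 and 40.1 CPM in knockout and 24.7, 23.9 and 30.1 CPM in wild type. Knockout was below wild type in every library at CT19, with a log2 fold change of -0.79 that did not pass (edgeR adjusted p = 0.2), and the genotypes overlapped at CT22. At CT1 Hadhb stood at 23.0, 29.2 and 19.4 CPM in knockout and 35.2, 29.8 and 33.6 CPM in wild type. At CT10 Hadhb stood at 39.1, 28.3 and 32.1 CPM in knockout and 22.1, 29.4 and 24.2 CPM in wild type. Knockout was again below wild type in every library at CT1, and the ranges overlapped at CT10. The genotype differences spanned 1.18 on the log2 scale over the 4 times (edgeR adjusted p = 0.026 for genotype by time). The CT10 minus CT1 difference, knockout minus wild type, was 0.86 (SE 0.27, edgeR adjusted p = 0.038). That last call was lost in 15 of the 24 fits that left out 1 library, lowest at 0.65 without knockout CT1 replicate 5 (edgeR adjusted p = 0.16). The others were knockout CT1 replicate 1, all 3 wild-type CT1 libraries, knockout CT10 replicates 2 and 4, wild-type CT10 replicates 1 and 4, knockout CT19 replicates 3and5 and 4, wild-type CT19 replicates 2 and 4, knockout CT22 replicate 1and4 and wild-type CT22 replicate 1, at 0.69 to 0.87. The genotype-by-time call was lost in 9 of the 24, at 1.09 to 1.13, without knockout CT1 replicate 1 or 5, wild-type CT1 replicate 2 or 3and6, knockout CT10 replicate 2 or 4, wild-type CT10 replicate 1 or 4 or wild-type CT22 replicate 1. With the rod score as covariate it was 1.31 and passed (edgeR adjusted p = 0.028), and the CT10 minus CT1 difference was 1.21 and did not (edgeR adjusted p = 0.091). The CT10 minus CT1 difference was called in 5 of 12 other settings. Beside the rod score, it missed the threshold with RLE scaling, at 0.73 (edgeR adjusted p = 0.066), and without a filter on low counts. It also missed with a mean of at least 5 CPM and in a fit of only the groups compared. A block for replicate number ended it as well, as did leaving out the 2 libraries highest in muscle and in adipocyte markers. Both of these also ended the genotype-by-time call, which was kept in 9 of 11 other settings.

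The partner subunit passed no comparison. At CT19 Hadha averaged 150.0 ± 31.6 CPM in knockout and 170.2 ± 22.1 CPM in wild type. At CT22 Hadha averaged 149.7 ± 29.3 CPM in knockout and 157 ± 3.43 CPM in wild type (SD, n = 3 each). These overlapped at both times. At CT1 Hadha averaged 153 ± 25.7 CPM in knockout and 151 ± 8.02 CPM in wild type. At CT10 Hadha averaged 152 ± 19.1 CPM in knockout and 148 ± 18.3 CPM in wild type (SD, n = 3 each). Its CT10 minus CT1 difference, knockout minus wild type, was 0.02 (SE 0.25, edgeR adjusted p = 0.97). Whether Hadha and Hadhb differed from each other in this was not tested.

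**Figure D3:**
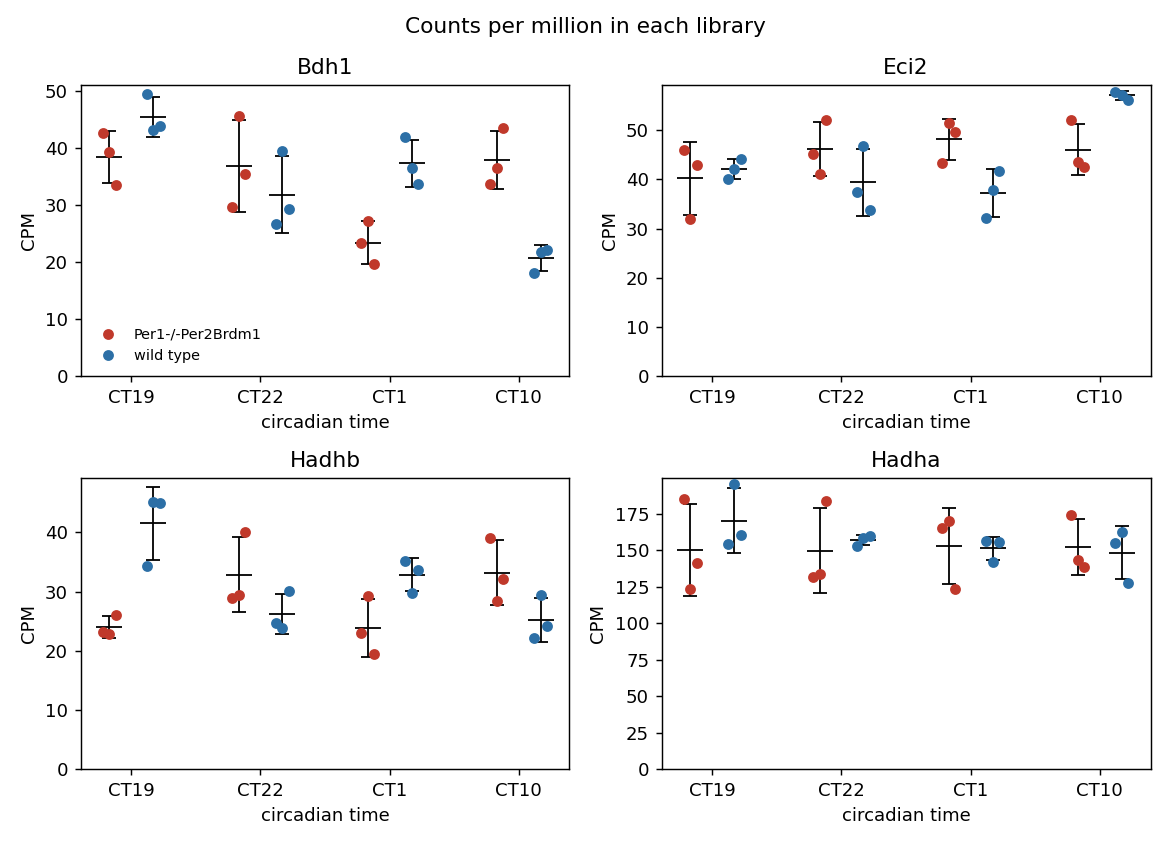
CPM of Bdh1, Eci2, Hadhb and Hadha in each library at the 4 circadian times, with knockout (red) left of wild type (blue) and axes from 0. Points are libraries, horizontal marks group means and bars the SD over 3 libraries. Bdh1 in knockout lies below wild type at CT1 and above it at CT10, and Eci2 in wild type is highest at CT10, from 56.2 to 57.9 CPM.

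Eci2, an enoyl-CoA isomerase that handles double bonds of unsaturated fatty acids in peroxisomes and mitochondria, was the third member called. It lies on the reverse strand at chr13:34977748-35027096 (GRCm38). At CT19 Eci2 stood at 45.9, 31.9 and 42.9 CPM in knockout and 40.0, 42.1 and 44.1 CPM in wild type. At CT22 Eci2 stood at 45.3, 41.2 and 52.1 CPM in knockout and 37.4, 46.9 and 33.9 CPM in wild type. The genotypes overlapped at both times. At CT1 Eci2 stood at 43.4, 51.4 and 49.6 CPM in knockout and 32.2, 37.8 and 41.8 CPM in wild type. At CT10 Eci2 stood at 52.0, 43.6 and 42.6 CPM in knockout and 57.9, 57.2 and 56.2 CPM in wild type. Knockout was above wild type in every library at CT1 and below it in every library at CT10. In wild type Eci2 was higher at CT10 than at CT1 by 0.62 on the log2 scale (SE 0.16, edgeR adjusted p = 0.041), while the knockout change was -0.06 (SE 0.16, edgeR adjusted p = 0.9). The difference between these changes was -0.68 (SE 0.23) and just missed the threshold (edgeR adjusted p = 0.055), so the genotypes were not shown to differ. That difference passed in 14 of 24 fits without 1 library and in 5 of 12 other settings, which were RLE scaling, a mean of at least 5 CPM, DESeq2, a fit of only the groups compared and the RPE score as covariate. The wild-type call was lost without wild-type CT1 replicate 2 or 3and6, at 0.56 and 0.65, and without wild-type CT10 replicate 1, 2 or 4, at 0.62, 0.64 and 0.66, with edgeR adjusted p of 0.06 to 0.17. With the rod score as covariate it was 0.49 (edgeR adjusted p = 0.25). Of 50-base words of its longest transcript, 15.8% occur in other genes, so its counts are less certain.

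Acaa2 showed its highest mean in knockout at CT10. At CT19 Acaa2 stood at 134.6, 75.4 and 76.0 CPM in knockout and 81.6, 131.9 and 124.4 CPM in wild type. At CT22 Acaa2 stood at 76.0, 94.7 and 148 CPM in knockout and 95.7, 97.9 and 79.7 CPM in wild type. Libraries of 1 group differed widely here, and the genotypes overlapped. At CT1 Acaa2 stood at 71.5, 98.1 and 62.2 CPM in knockout and 93.4, 80.5 and 92.6 CPM in wild type. At CT10 Acaa2 stood at 166, 100.02 and 129.3 CPM in knockout and 107.4, 104.8 and 77.0 CPM in wild type. The genotypes overlapped at both times. The CT10 minus CT1 change was 0.77 in knockout (SE 0.26, edgeR adjusted p = 0.24) and 0.12 in wild type (SE 0.26, edgeR adjusted p = 0.85), and neither passed.

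Acadm, the medium-chain acyl-CoA dehydrogenase, passed no comparison, and its knockout libraries all lay below its wild-type libraries at CT1. At CT19 Acadm stood at 61.3, 65.8 and 50.5 CPM in knockout and 66.0, 67.5 and 64.7 CPM in wild type. At CT22 Acadm stood at 53.0, 75.6 and 60.2 CPM in knockout and 54.6, 58.4 and 52.3 CPM in wild type. The genotypes overlapped at both of these times. At CT1 Acadm stood at 55.2, 55.9 and 47.0 CPM in knockout and 79.0, 65.0 and 76.6 CPM in wild type. At CT10 Acadm stood at 67.3, 63.4 and 57.5 CPM in knockout and 54.2, 78.3 and 57.4 CPM in wild type. The CT1 log2 fold change was -0.48 (SE 0.16) and did not pass (edgeR adjusted p = 0.11). Group means were 52.7 ± 4.93 CPM in knockout and 73.6 ± 7.48 CPM in wild type at CT1, and 62.7 ± 4.91 CPM in knockout and 63.3 ± 13.1 CPM in wild type at CT10 (SD, n = 3 each). At CT19 they were 59.2 ± 7.84 CPM in knockout and 66.1 ± 1.38 CPM in wild type, and at CT22 62.9 ± 11.5 CPM in knockout and 55.1 ± 3.10 CPM in wild type.

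The other 7 genes of mitochondrial beta-oxidation passed no comparison. Acadl, Acadvl and Acads, the dehydrogenases for long, very long and short chains, had genotype-average log2 fold changes of -0.08, -0.14 and -0.02. Echs1, the short-chain enoyl-CoA hydratase, and Hadh, the hydroxyacyl-CoA dehydrogenase, were higher in every knockout library than in any wild-type library at CT10, with log2 fold changes of 0.39 (edgeR adjusted p = 0.26) and 0.41 (edgeR adjusted p = 0.32). Echs1 averaged 89.5 ± 8.92 CPM in knockout and 68.4 ± 4.90 CPM in wild type at CT10, and Hadh averaged 92.0 ± 12.02 CPM in knockout and 69.3 ± 14.9 CPM in wild type (SD, n = 3 each). The separation of Hadh was narrow, with the lowest knockout library at 82.7 CPM and the highest wild-type library at 82.2 CPM. Eci1 and Decr1, the dienoyl-CoA reductase, stood at 0.32 and 0.19 at CT10. All 12 genes of the step had negative log2 fold changes at CT19, with a median of -0.24, against -0.01 for all genes tested. At CT10, 9 of 12 had positive ones, with a median of 0.18, against 0.09 for all genes tested. None of these fold changes passed. Signs of genes measured in the same libraries carry no test, and the part of RPE content in them was not tested. Acadvl shares 1151 exon bases with Dvl2 on the opposite strand, which had 14550 counts against 64888 for Acadvl, so part of its count is uncertain.

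No gene of the carnitine shuttle passed the test. At CT19 Cpt1a averaged 303 ± 100.8 CPM in knockout and 363 ± 56.8 CPM in wild type. At CT22 Cpt1a averaged 309 ± 76.1 CPM in knockout and 314 ± 22.4 CPM in wild type (SD, n = 3 each). It had the highest CPM of the 32 genes. At CT1 Cpt1a averaged 291 ± 62.9 CPM in knockout and 279 ± 30.9 CPM in wild type. At CT10 Cpt1a averaged 305 ± 36.4 CPM in knockout and 273 ± 30.3 CPM in wild type (SD, n = 3 each). The genotype-average log2 fold change of Cpt1a was -0.01 (SE 0.11, edgeR adjusted p = 1). Cpt2, the inner-membrane partner of Cpt1a, Slc25a20, the carrier that exchanges acylcarnitine for carnitine, and Crat, the carnitine acetyltransferase, had averages of -0.07, -0.06 and -0.12. None of the 4 stood at an unadjusted p under 0.05 in any comparison.

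Electron transfer genes carry the electrons of the dehydrogenases to the respiratory chain. Etfb, the beta subunit of the electron transfer flavoprotein, had the lowest unadjusted p of its role. At CT19 Etfb stood at 47.6, 40.3 and 54.4 CPM in knockout and 50.4, 56.6 and 63.6 CPM in wild type. At CT22 Etfb stood at 38.5, 50.1 and 61.9 CPM in knockout and 50.9, 50.5 and 43.2 CPM in wild type. The genotypes overlapped at both times. At CT1 Etfb stood at 39.6, 36.1 and 32.2 CPM in knockout and 39.9, 43.5 and 50.9 CPM in wild type. At CT10 Etfb stood at 55.7, 42.5 and 70.3 CPM in knockout and 52.3, 48.2 and 46.0 CPM in wild type. Knockout was below wild type in every library at CT1. The CT10 minus CT1 change was 0.64 in knockout (SE 0.19, edgeR adjusted p = 0.23) and 0.13 in wild type (SE 0.19, edgeR adjusted p = 0.76), and neither passed. Etfa, the alpha subunit, and Etfdh, the oxidoreductase that receives the electrons, had log2 fold changes at CT10 of 0.49 and 0.51 (edgeR adjusted p = 0.25 for each). Of 50-base words of Etfb, 67.3% occur in Gm45233 on the same strand, so reads may have been left unassigned and its level is uncertain.

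Among genes of fatty acid binding and activation, Acsl1, which attaches coenzyme A to long-chain fatty acids, passed no comparison. Its knockout libraries all lay below its wild-type libraries at CT1. At CT19 Acsl1 stood at 89.6, 87.4 and 62.7 CPM in knockout and 72.6, 75.6 and 80.7 CPM in wild type. At CT22 Acsl1 stood at 64.9, 84.5 and 68.6 CPM in knockout and 71.5, 103.2 and 69.4 CPM in wild type. The genotypes overlapped at both times. At CT1 Acsl1 stood at 54.0, 81.6 and 52.6 CPM in knockout and 101.5, 86.9 and 86.9 CPM in wild type. At CT10 Acsl1 stood at 74.8, 66.6 and 65.6 CPM in knockout and 64.4, 71.3 and 50.8 CPM in wild type. Its CT1 log2 fold change was -0.55 (SE 0.19, edgeR adjusted p = 0.12), and the CT10 minus CT1 difference, knockout minus wild type, was 0.70 (SE 0.27, edgeR adjusted p = 0.089). Acot1 and Acot2, the cytosolic and mitochondrial thioesterases that release fatty acids from coenzyme A, had genotype averages of -0.47 and -0.40 (edgeR adjusted p = 0.49 and 0.52). They share 50-base words, 17.6% of Acot1 with Acot2 and 24.5% of Acot2 with Acot1, and cannot be fully told apart. Fabp3, the fatty acid binding protein of heart and muscle, ran from 0 to 5.65 CPM, and 29.2% of its words occur in the pseudogene Fabp3-ps1.

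Fabp5, the fatty acid binding protein of epidermis, and Angptl4, a secreted inhibitor of lipoprotein lipase, spread most between libraries of 1 group. At CT1 Fabp5 stood at 23.3, 13.0 and 174 CPM in knockout and 5.92, 317 and 112.8 CPM in wild type. At CT10 Fabp5 stood at 32.1, 21.4 and 4.19 CPM in knockout and 358, 81.9 and 97.3 CPM in wild type. Knockout was lower in every library at CT10, with a log2 fold change of -3.22 and an SE of 1.45 that left it short of the threshold (edgeR adjusted p = 0.26). At CT19 Fabp5 stood at 30.7, 7.23 and 11.2 CPM in knockout and 15.9, 10.6 and 4.78 CPM in wild type. At CT22 Fabp5 stood at 72.1, 172 and 51.8 CPM in knockout and 2.53, 9.18 and 104.5 CPM in wild type. The highest library had 141-fold the CPM of the lowest over all 24. At CT19 Angptl4 stood at 54.6, 23.4 and 16.3 CPM in knockout and 1.99, 8.49 and 10.5 CPM in wild type. At CT22 Angptl4 stood at 22.3, 24.0 and 24.1 CPM in knockout and 11.6, 20.3 and 6.88 CPM in wild type. Knockout was above wild type in every library at both times, with log2 fold changes of 2.16 (SE 0.73, edgeR adjusted p = 1) and 0.86 (SE 0.70, edgeR adjusted p = 0.67). At CT1 Angptl4 stood at 7.90, 13.8 and 16.3 CPM in knockout and 3.06, 26.9 and 46.3 CPM in wild type. At CT10 Angptl4 stood at 14.01, 12.3 and 10.8 CPM in knockout and 28.2, 20.2 and 11.3 CPM in wild type. The order of the group means was turned round at these times, with overlapping libraries. As group means Angptl4 was 31.4 ± 20.4 CPM in knockout and 7.01 ± 4.46 CPM in wild type at CT19, and 23.5 ± 1.04 CPM in knockout and 12.9 ± 6.80 CPM in wild type at CT22 (SD, n = 3 each). The group means were 12.7 ± 4.32 CPM in knockout and 25.4 ± 21.7 CPM in wild type at CT1, and 12.4 ± 1.62 CPM in knockout and 19.9 ± 8.46 CPM in wild type at CT10.

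**Figure D4:**
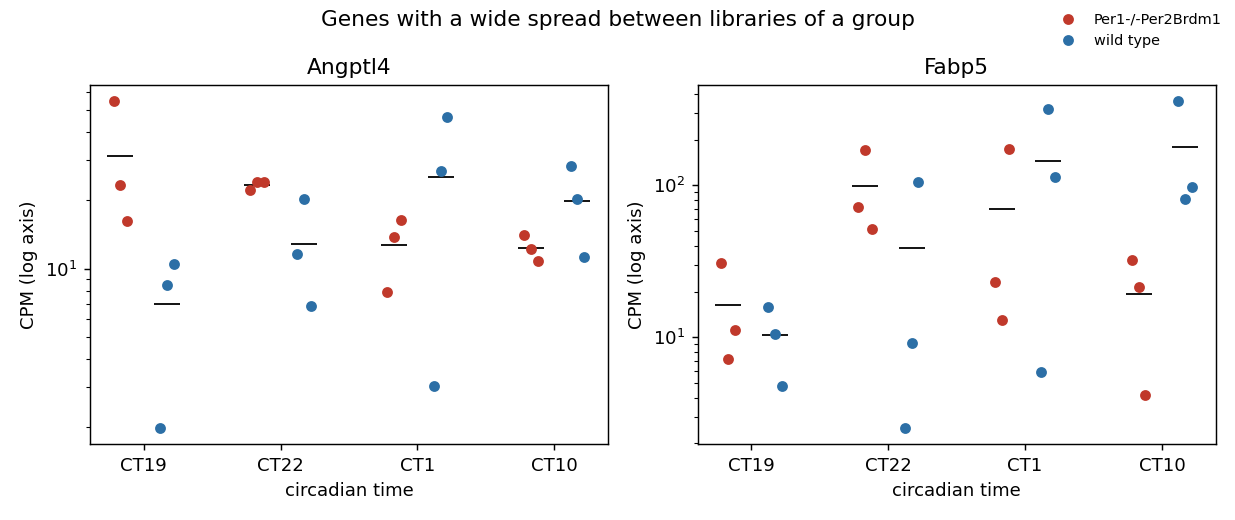
CPM of Angptl4 and Fabp5 in each library on log axes at the 4 circadian times, with knockout (red) left of wild type (blue). Points are libraries and horizontal marks are group means. Libraries of 1 group spread widely, as for wild-type Fabp5 at CT1, and no difference passed the test.

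The regulators did not pass either. At CT19 Ppara averaged 5.96 ± 2.26 CPM in knockout and 7.35 ± 3.18 CPM in wild type. At CT22 Ppara averaged 6.46 ± 2.08 CPM in knockout and 12.6 ± 2.82 CPM in wild type (SD, n = 3 each). Every knockout library was below every wild-type library at CT22, with a log2 fold change of -0.96 (SE 0.40, edgeR adjusted p = 0.3). At CT1 Ppara averaged 5.33 ± 1.67 CPM in knockout and 6.86 ± 2.66 CPM in wild type. At CT10 Ppara averaged 5.55 ± 2.25 CPM in knockout and 6.86 ± 1.47 CPM in wild type (SD, n = 3 each). Its genotype average was -0.48 (SE 0.20, edgeR adjusted p = 0.56). At CT19 Ppargc1a averaged 52.2 ± 2.15 CPM in knockout and 54.9 ± 10.8 CPM in wild type. At CT22 Ppargc1a averaged 47.3 ± 3.55 CPM in knockout and 45.5 ± 6.06 CPM in wild type (SD, n = 3 each). Ppargc1a, which encodes PGC-1 alpha, had a genotype average of -0.04 (SE 0.08, edgeR adjusted p = 0.97). At CT1 Ppargc1a averaged 51.6 ± 9.66 CPM in knockout and 59.2 ± 7.47 CPM in wild type. At CT10 Ppargc1a averaged 52.8 ± 1.78 CPM in knockout and 50.4 ± 1.69 CPM in wild type (SD, n = 3 each).

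Of the peroxisomal genes, Acaa1a, the peroxisomal thiolase, had a genotype difference at CT10 opposite in sign to that of the mitochondrial thiolase Acaa2. At CT19 Acaa1a stood at 68.6, 79.7 and 75.1 CPM in knockout and 78.9, 89.4 and 62.8 CPM in wild type. At CT22 Acaa1a stood at 83.2, 72.2 and 69.4 CPM in knockout and 103.0, 83.6 and 74.6 CPM in wild type. The genotypes overlapped at both times. At CT1 Acaa1a stood at 89.6, 79.0 and 83.0 CPM in knockout and 79.2, 71.1 and 71.1 CPM in wild type. At CT10 Acaa1a stood at 66.1, 68.5 and 72.1 CPM in knockout and 89.0, 88.8 and 99.1 CPM in wild type. Every knockout library lay below every wild-type library at CT10, with a log2 fold change of -0.42 (SE 0.15, edgeR adjusted p = 0.16). Its CT10 minus CT1 difference, knockout minus wild type, was -0.61 (SE 0.21, edgeR adjusted p = 0.06). It passed in the same 5 settings as that of Eci2 and in 3 of 24 fits without 1 library. Of its 50-base words, 15.6% occur in Acaa1b. Its exons share 290 bases with Myd88 on the opposite strand, which had 7847 counts against 45709 for Acaa1a, so part of its count is uncertain. Ehhadh, the bifunctional enzyme of the classical peroxisomal pathway, and Hsd17b4, the one for branched chains, had CT10 log2 fold changes of 0.43 (edgeR adjusted p = 0.42) and 0.38 (edgeR adjusted p = 0.29).

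Across time the median log2 range of the 32 genes was 0.34 in knockout and 0.39 in wild type, where that of all genes tested was 0.63 in knockout and 0.73 in wild type. These ranges were not adjusted for how deeply a gene was counted. For CT10 minus CT1 the members' median was 0.18 in knockout, against -0.07 in wild type. The median of the difference, knockout minus wild type, was 0.31 for the members and 0.13 for all genes. With RLE scaling it was 0.18 for the members and -0.003 for all genes, so scaling moved all genes by more than 0.1 in this contrast and the members stayed above them.

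Genes of the pathway outside the list were looked at through 6 lists of 120 genes, of which 105 passed the filter. Between genotypes, 1 of 105 was called for the average (0.375% of all genes) and 1 at CT19, both Dbi, the acyl-CoA binding protein. Its log2 fold change was -0.69 (SE 0.10, edgeR adjusted p = 0.0004) for the average and -1.07 (SE 0.21, edgeR adjusted p = 0.046) at CT19. In wild type, 4 of 105 fell from CT1 to CT10, near the 3.48% of all genes called in either direction, among them Rxra, the partner receptor of PPAR alpha, at -0.67 (edgeR adjusted p = 0.02), and Slc16a3, a lactate and ketone body transporter, at -1.63 (edgeR adjusted p = 0.029). The CT10 minus CT1 difference, knockout minus wild type, called 13 of 105, 7 positive and 6 negative, against 11.6% of all genes, a share near the background. Scp2, a peroxisomal thiolase and sterol carrier (1.05), Amacr, the racemase for branched fatty acids (0.98), Rxra (0.73), Slc16a3 (2.01) and Esrrb, an orphan nuclear receptor (1.89), were positive on the log2 scale. Acacb, which makes the inhibitor of Cpt1a (-1.35), Cpt1c, a relative of Cpt1a found mainly in brain (-1.44), and Slc27a1, a fatty acid transporter (-0.90), were negative. By list, the calls were 2 of 16 tested for uptake and activation, 3 of 19 for mitochondrial oxidation, 3 of 17 for peroxisomal oxidation, 1 of 12 for ketone bodies, 4 of 27 for PPAR partners and targets and 0 of 14 for lipid droplets and lipases.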

How the data were processed

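The authors deposited raw read counts per gene, whole numbers with no normalization, for 24 libraries and 54232 Ensembl identifiers. The submitters' processing notes name build GRCm38.p6 and the tools HTSeq 0.11, Cufflinks, HISAT2 2.1.0 and Trimmomatic 0.32. What each did, which annotation was used and whether counting was stranded are not given in the sources used here, so genes that overlap others are uncertain. Symbols, exon lengths and coordinates came from GENCODE M21 (GRCm38) and promoters from RefSeq; 54079 identifiers had a symbol. Tests used edgeR 4.0.16 under R 4.3.3 (TMM scaling, filterByExpr with its minimum count of 10, robust quasi-likelihood fit over all 8 groups, 16 residual degrees of freedom), with Benjamini-Hochberg adjustment over 20275 genes at 0.05. The genotype average, genotype at CT1 and wild-type time tests were run on simulated counts. Changes were set between genotypes only, equal at all times, and all genes were given the same spread, unlike the data. Most changes set were called for the average and few at the single time. For wild-type time no change was set, so its power was not checked, and tests of genotype by time were not simulated. For tests over 4 times the value is the range of the fitted log2 values. DESeq2 1.42.0 and limma 3.58.1 (voom) were alternatives. Library totals of 16245067 to 32066263 counts limit the precision of low genes. Values in every library were printed for members that passed, and for those with the lowest unadjusted p until 8 were reached; Angptl4 and Fabp5 were added after their values were seen, for their spread. Other pathway genes were named by the lowest adjusted p, and some of them are not reported here. The members and lists were chosen with earlier results of these data known.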

Additional observations from a re-analysis of the deposited data

Results flagged for a closer look

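Both members whose time course differed between the genotypes were singled out by the test of that difference itself. For Bdh1 the genotype differences, knockout minus wild type, spanned 1.55 on the log2 scale over the 4 times, and the CT10 minus CT1 change was higher in knockout by 1.55. For Hadhb the genotype differences spanned 1.18 and the CT10 minus CT1 change was higher in knockout by 0.86. Groups held 3 libraries each, too few to test a single library as an outlier.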

How the results depend on the processing

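None of the 7 calls on Bdh1, Hadhb and Eci2 changed direction under the alternatives tried. Without a filter on low counts, edgeR called 1 member for the genotype average, 1 at CT19, 2 at CT22, 3 at CT1, 2 at CT10, 3 over time in wild type, 2 over time in knockout, 4 for genotype by time and 2 for CT10 minus CT1 in knockout; the added calls were mostly Angptl4 and Fabp5. With a mean of at least 5 CPM the counts were 2 over time in wild type and 4 for genotype by time. DESeq2 called 1 at CT19, 1 at CT1, 2 at CT10, 3 over time in wild type, 5 for genotype by time and 4 for the CT10 minus CT1 difference between genotypes, and limma-voom called 1 for CT10 minus CT1 in wild type. Fitting only the groups compared gave 2 at CT10 and 2 over time in wild type. RLE scaling, a mean of at least 5 CPM and fitting only the groups compared each called 3 for the CT10 minus CT1 difference, gaining Eci2 and Acaa1a and losing Hadhb. Without the 5 pooled libraries, 0 members were called over time in wild type and 0 for CT10 minus CT1 in wild type. Marker scores as covariates moved counts both ways. The rod score gave 1 at CT10, 2 over time in wild type, 1 for genotype by time, 0 for CT10 minus CT1 in wild type and 0 for its difference between genotypes. The choroid score gave 1 at CT10 and 3 over time in wild type. The pigment epithelium score, added after seeing the data, gave 1 at CT10, 3 over time in wild type and 4 for the CT10 minus CT1 difference. Leaving out the 2 libraries highest in muscle and in adipocyte markers, also added later, gave 0 over time in wild type, 0 for genotype by time, 0 for CT10 minus CT1 in wild type and 1 for its difference. Leaving out 1 library at a time gave 0 to 1 members at CT1 and at CT10, 0 to 2 over time in wild type, for genotype by time and for CT10 minus CT1 in wild type, 1 to 4 for its difference between genotypes, and 0 elsewhere. The cause of these shifts was not tested. Calls over all genes shifted with the setting too. For the genotype average they numbered 76 in the main fit, 378 without the filter and 169 with DESeq2. Most other counts over all genes are not printed here, so these member counts describe the settings and are not results about the pathway. Replicate numbers gave no sign of pairing by the median correlation of deviations from group means. This median r was 0.01 over 30 pairs with identical numbers (-0.21 to 0.42) and -0.01 over 222 others (-0.46 to 0.41). A joined number such as 3and5 was not matched with 3 or 5. The medians cannot exclude pairing of some libraries, so the fit with a replicate block is not set aside. With the replicate block, 0 members were called over time in wild type, for genotype by time, for CT10 minus CT1 in wild type and for its difference between genotypes, where Bdh1 stood at 1.56 (edgeR adjusted p = 0.065). The sign of the genotype average changed for 15 of the 32 members under at least 1 of 35 alternatives.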
